A study of Mus musculus with 12 samples.

Results

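Lungs that had been injured and then given tpMSC were compared with uninjured lungs, to describe what still differs from normal lung after that treatment. The comparison takes the 3 libraries titled tpMSC and the 3 titled Control, 6 of the 12 libraries of the series, and every gene that passed a filter on low counts, 22915 of the 38349 genes in the deposited table. All samples are lung of Wildtype Mus musculus. Per the series title, the injury (ALI, acute lung injury) was induced by hypoxia and LPS, the lipopolysaccharide of bacterial cell walls. Control is the normal group without injury, ALI the untreated injury model, and the MSC and tpMSC groups are injured lungs that received MSC or tpMSC as treatment. The labels do not spell out either abbreviation, the dose, the route, the time of collection, the strain or the age. Whether the replicates come from different mice is also not labelled; a p-value here reflects how these libraries vary, and that variation may be technical only.

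As background, LPS is sensed by Toll-like receptor 4 on macrophages, endothelium and epithelium of the lung, and drives cytokines and chemokines through the transcription factor NF-kB. Neutrophils then enter the airspaces, resident alveolar macrophages can be lost, and interferon gamma from lymphocytes induces GTPases and antigen presentation in many cell types. Repair involves proliferation, new matrix and rebuilding of the capillary bed.

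Depth was even: 63147393 to 68946006 counts per library in the Control and tpMSC groups, within 53083002 to 70209229 over all 12. Lung markers were high in each of the 6 libraries: Sftpc, the surfactant protein of alveolar type 2 cells, stood at 6706 to 11439 FPKM (fragments per kilobase of transcript, scaled to library size), and Ager, an alveolar type 1 cell gene, at 808.5 to 974.3 FPKM. In a principal component analysis of the 6 libraries, the first component (45.1% of variance) separated the groups, with Control at -61.6 to -46.9 and tpMSC at 47.3 to 73.2. On the second (16.9%), tpMSC replicate 3 lay at -57.1 and tpMSC replicates 1 and 2 at 34.6 and 40.3, and Control replicate 3 lay at -31.9 and the other Control libraries at 0.34 and 13.8. List counts in which tpMSC replicate 3 stands out, and genes whose fold change moved by over 1.5 times without it, are therefore given with and without it. Cardiac muscle genes also varied by library: their summed level was 13.7 to 40.9 FPKM in Control, highest in replicate 3, and 18.7 to 71.3 FPKM in tpMSC, highest in replicate 3. Of the 10 cardiac genes tested 1 rose, Mybpc3 (call lost without Control replicate 1 or 2 or tpMSC replicate 2 or 3), and 3 rose without Control replicate 3. The part of heart muscle in the results below was not tested.

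In tpMSC against Control 3643 genes (15.9% of those tested) passed a Benjamini-Hochberg adjusted p of 0.05 in edgeR's quasi-likelihood test, 2086 of them higher (9.1%) and 1557 lower (6.79%). The difference was at least 2-fold for 1224 genes (5.34%), 830 higher (3.62%) and 394 lower (1.72%). The median log2 fold change of all genes tested was -0.0057, so changes are read against a centre near 0. For 8874 genes (38.7%) the 3 libraries of each group did not overlap, whether or not they passed the test. Side by side, and sharing the same Control libraries, ALI against Control gave 9126 calls (39.8%) and MSC against Control 4284 (18.7%). With limma on log2(FPKM + 1) the count was 3608, of which 43.5% were higher, against 57.3% in the edgeR test, and with a pseudocount of 0.1 it was 3637, of which 48.0% were higher. Leaving out single libraries lowered the count to 1860 (without Control replicate 1), 1830 (without Control replicate 2), 2419 (without Control replicate 3) and 2287 (without tpMSC replicate 3).

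**Figure D1:**
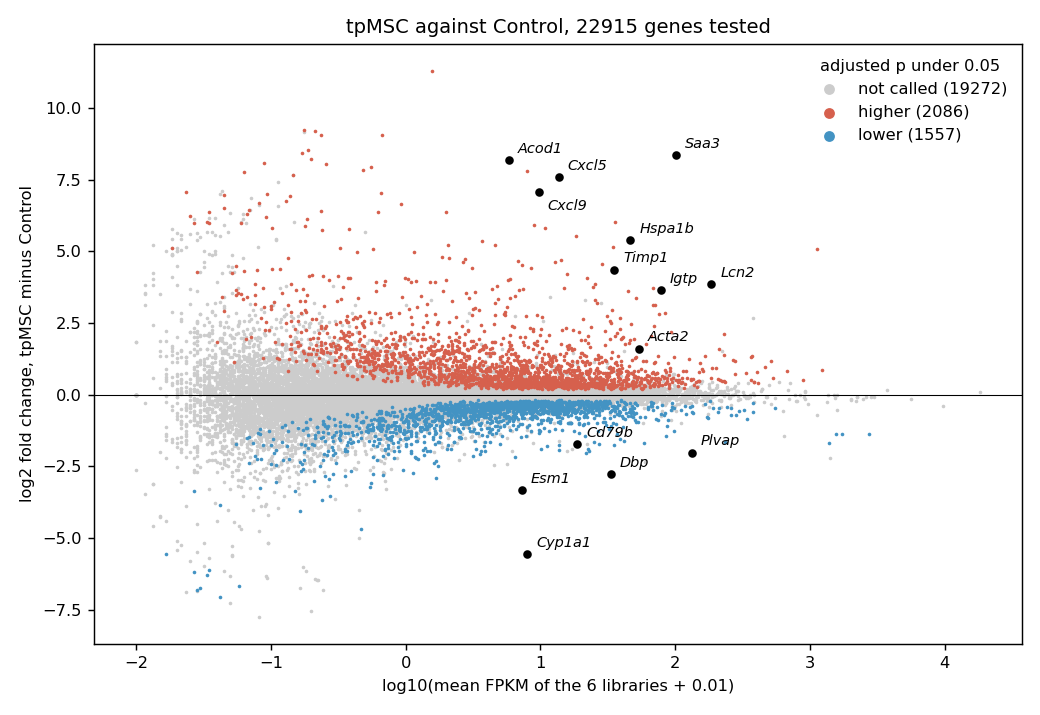
Log2 fold change of tpMSC minus Control for each gene tested (vertical axis) against the log10 of its mean FPKM over the 6 libraries plus 0.01 (horizontal axis). Red and blue points are the 2086 genes called higher and the 1557 called lower; labelled black points are genes described in the text, from Saa3 and Acod1 at the top to Cyp1a1 at the bottom.

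To describe these genes, 69 lists of pathway genes and cell type markers were counted. All counts below are of members that passed the same test over all genes, to be read against 9.1% higher and 6.79% lower among all genes. Members named as exceptions to a count were picked after their values were seen.

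**Figure D2:**
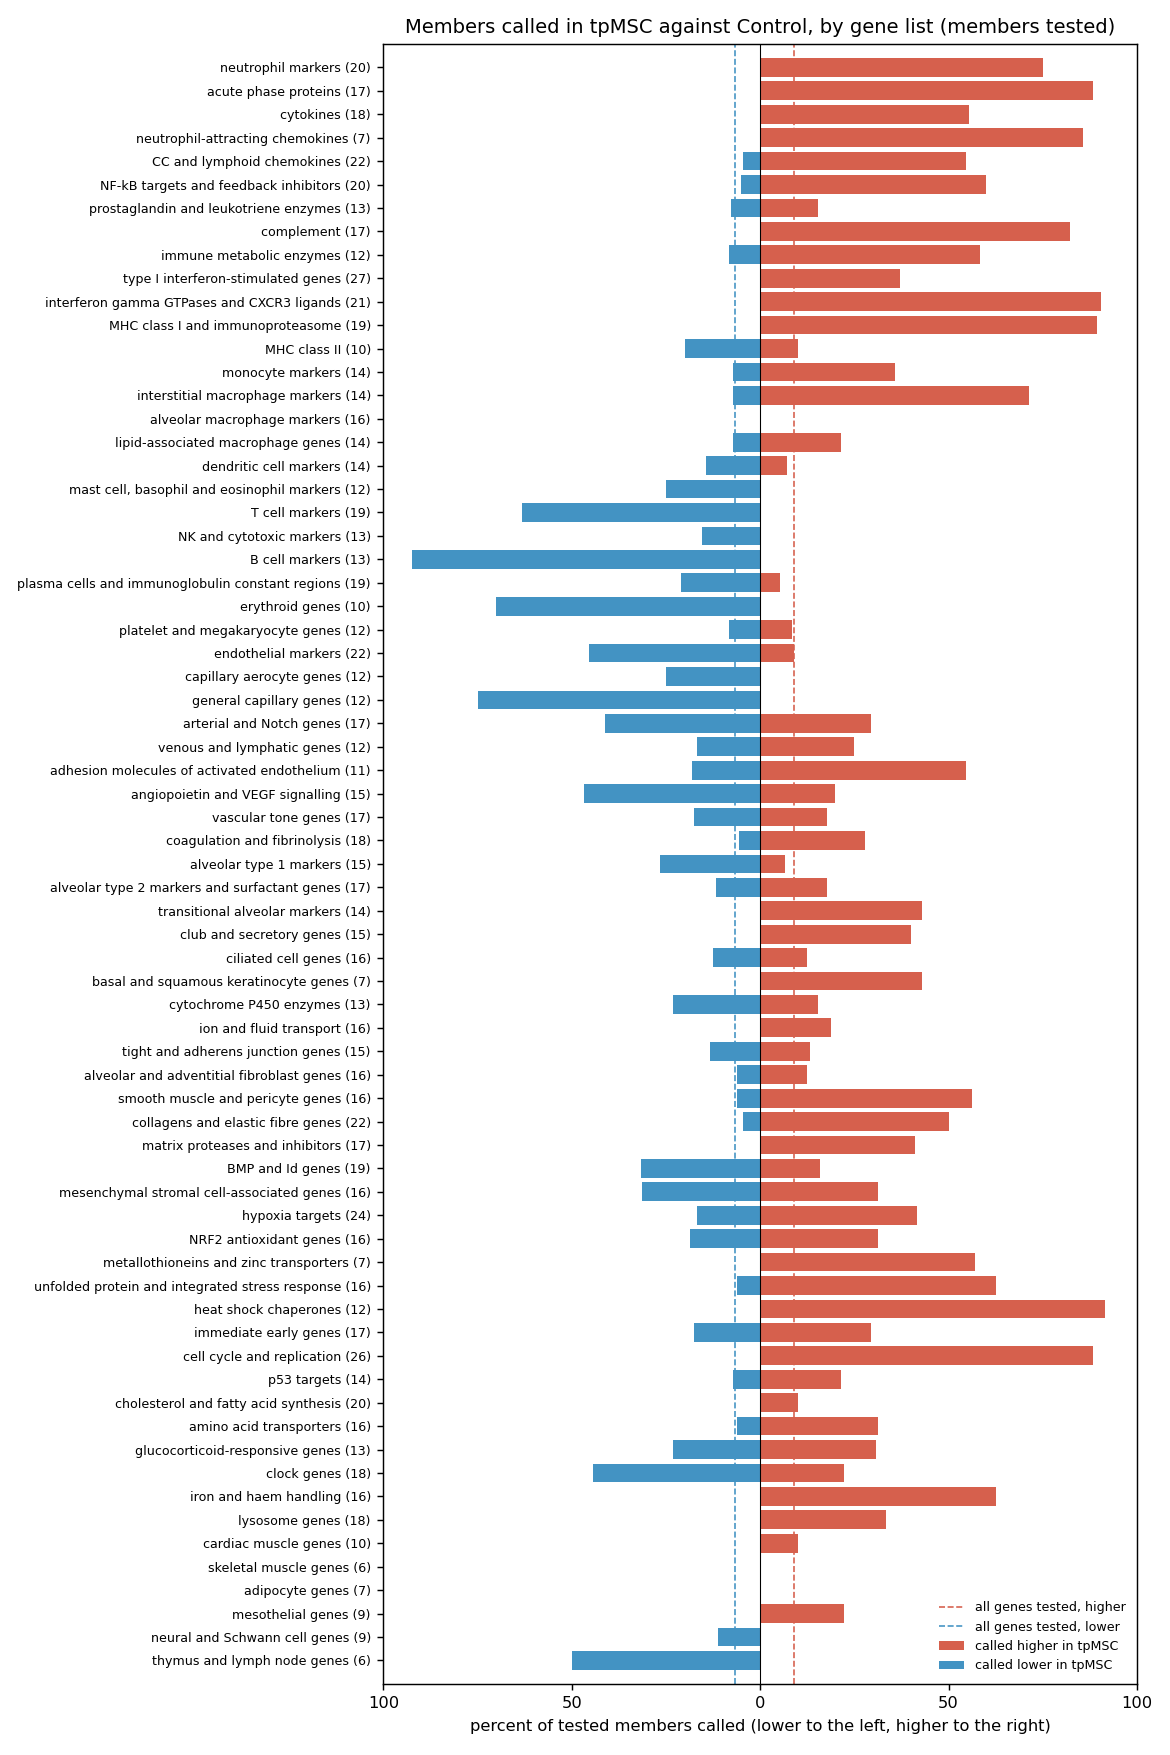
Percent of the tested members of each of 69 gene lists called higher (red, to the right) or lower (blue, to the left) in tpMSC against Control, with the number of members tested in parentheses. Dashed lines mark the shares among all genes tested, 9.1% higher and 6.79% lower; acute phase, interferon gamma, heat shock and cell cycle lists reach far to the right, and B cell, T cell, erythroid and general capillary lists far to the left.

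The secreted signals of inflammation were above Control. Of 18 cytokines tested, 10 rose, of 7 neutrophil-attracting chemokines 6 rose, and of 22 CC and lymphoid chemokines 12 rose and 1 fell. The median log2 fold change of these lists was 1.15, 4.64 and 0.83, beside 3.37, 7.42 and 1.57 in ALI against Control and 1.64, 5.25 and 1.12 in MSC against Control. The cytokine median was 0.69 without tpMSC replicate 3, and that of the CC and lymphoid chemokines was 1.61 without Control replicate 3. Pf4, among the 6 neutrophil-attracting chemokines that rose (1.32 ± 0.20, adjusted p = 0.00196), is also listed as a platelet gene and an interstitial macrophage marker. Cxcl5, a ligand of the neutrophil receptor CXCR2, was at 0.17, 0.17 and 0.08 FPKM in Control and at 10.1, 14.2 and 57.3 FPKM in tpMSC. The groups did not overlap, and the log2 fold change was 7.59 ± 0.88 (SE; adjusted p = 0.000614). Cxcl3, another such ligand, went from 0.08, 0.09 and 0.04 FPKM to 14.5, 9.37 and 23.7 FPKM (7.82 ± 0.84, adjusted p = 0.000391). Its ALI libraries, at 9.66 to 12.99 FPKM, lay within the range of the tpMSC libraries, whereas those of Cxcl5 lay above them at 180.7 to 278.0 FPKM. Il6, the cytokine that induces acute phase proteins, was at 0.02, 0.1 and 0.09 FPKM in Control and at 1.33, 2.94 and 2.38 FPKM in tpMSC, a log2 fold change of 4.96 ± 0.51 (adjusted p = 0.000325). Tnf, an early macrophage cytokine, stood at 0.63, 0.84 and 0.59 FPKM in Control and 6.77, 4.95 and 20.7 FPKM in tpMSC, with the highest value in tpMSC replicate 3 (4.01 ± 0.48, adjusted p = 0.000717). Ccl3, which attracts monocytes, rose by a log2 of 5.55 ± 0.68 (adjusted p = 0.000795), and Cxcl13, which attracts B cells, by 3.86 ± 0.27 (adjusted p = 2.6e-05). Without tpMSC replicate 3, 7 cytokines, 6 neutrophil-attracting chemokines and 10 CC and lymphoid chemokines rose, and the log2 fold changes of Cxcl5, Tnf and Ccl3 were 6.42, 3.12 and 4.88. Without Control replicate 1, and likewise without Control replicate 2, these 3 counts were 7, 5 and 9.

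Feedback inhibitors and metabolic enzymes of this response moved in both directions, with more rises than falls. Of 20 NF-kB targets and feedback inhibitors, 12 rose and 1 fell (8 rose without Control replicate 1 or 3, and 2 fell without tpMSC replicate 3). Socs3, an inhibitor of cytokine receptor signalling, was at 9.85, 11.7 and 11.1 FPKM in Control and 40.7, 42.4 and 66.3 FPKM in tpMSC (log2 fold change 2.23 ± 0.19, adjusted p = 0.000102). Dusp1, a phosphatase that turns off MAP kinases, was the member that fell, from 56.2, 83.3 and 57.8 FPKM to 38.5, 36.2 and 30.0 FPKM (-0.88 ± 0.16, adjusted p = 0.00432). In ALI against Control its log2 fold change was 0.07. Of 12 immune metabolic enzymes 7 rose, or 4 without Control replicate 1, and Kmo, an enzyme of tryptophan breakdown, fell (-1.33 ± 0.29, adjusted p = 0.0111). Acod1, which makes itaconate in activated macrophages, was at 0.08, 0.04 and 0 FPKM in Control and 4.36, 2.51 and 27.7 FPKM in tpMSC (8.19 ± 1.10, adjusted p = 0.00119), with tpMSC replicate 3 far above the other libraries of its group. Without that library the Acod1 log2 fold change was 6.43, and without Control replicate 1 or 3 it was 9.14 or 7.60. Gpr84, a receptor for medium-chain fatty acids on myeloid cells, rose by a log2 of 6.39 ± 0.84 (adjusted p = 0.00113), which was 5.66 without tpMSC replicate 3, 7.12 without Control replicate 2 and 5.80 without Control replicate 3.

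Acute phase proteins were among the most changed genes, with 15 of 17 tested called higher and a median log2 fold change of 2.63. Saa3, an acute phase protein made in the lung itself (chr7:46711998-46715700, GRCm38), was at 0.5, 0.77 and 0.61 FPKM in Control and at 182.7, 136.1 and 287.6 FPKM in tpMSC. No library of either group came near the other, and the log2 fold change was 8.36 ± 0.35 (adjusted p = 5.81e-07). The ALI libraries held 1418 to 1566 FPKM, above every tpMSC library. Serpina3n, a protease inhibitor, varied little within groups, at 10.2, 9.99 and 9.26 FPKM in Control and 123.8, 124.1 and 133.6 FPKM in tpMSC (3.73 ± 0.16, adjusted p = 5.81e-07). Orm1, an orosomucoid carrier protein of plasma, rose by a log2 of 5.82 ± 0.48 (adjusted p = 9.62e-05), and Saa1 by 6.36 ± 0.71 (adjusted p = 0.000471). Without Control replicate 3 the changes were 6.50 for Orm1 and 10.8 for Saa1. Saa1, Saa3, Orm1 and the Serpina3 genes have close copies among which reads could be split. Zinc and iron genes moved the same way: 4 of 7 metallothioneins and zinc transporters and 10 of 16 iron and haem genes rose. Mt2, a metal-binding protein, was at 4.54, 4.91 and 4.78 FPKM in Control and 40.3, 42.9 and 54.3 FPKM in tpMSC (3.30 ± 0.16, adjusted p = 1.43e-06). Without Control replicate 1, 6 iron and haem genes rose.

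Neutrophil markers were higher in tpMSC than in Control for 15 of 20 members tested, with a median log2 fold change of 1.71 beside 4.67 in ALI. In bulk tissue, more cells of a type and more RNA per cell cannot be told apart, and likewise fewer cells and less RNA. Against ALI, 19 of the 20 were lower in tpMSC, where 11.5% of all genes tested were lower. Lcn2, a siderophore-binding granule protein that epithelium also makes, was at 21.6, 24.7 and 26.9 FPKM in Control and 300.0, 252.6 and 490.3 FPKM in tpMSC (3.87 ± 0.25, adjusted p = 1.05e-05). Stfa2l1, a stefin-type protease inhibitor of neutrophils, stood at 0.9, 1.23 and 0.94 FPKM against 12.7, 12.3 and 13.4 FPKM (3.65 ± 0.21, adjusted p = 6.02e-06). Trem1, an activating receptor of neutrophils and monocytes, was closer to Control, at 1.75, 1.35 and 1.44 FPKM against 4.02, 3.99 and 5.78 FPKM (1.64 ± 0.18, adjusted p = 0.000508). The granule genes Ngp and Camp, expressed in immature neutrophils, did not pass the test, with log2 fold changes of -0.77 ± 0.43 (adjusted p = 0.255) and 0.40 ± 0.43 (adjusted p = 0.592). Ltf, another granule gene of the list, did rise (4.06 ± 0.91, adjusted p = 0.0123). Ly6g, Fpr1 and Fpr2 did not pass either, so the calls do not divide the list by maturity.

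Macrophage lists differed from each other. Of 14 interstitial macrophage markers 10 rose and 1 fell (median log2 fold change 1.13), and of 17 complement genes 14 rose (0.84). Both lists hold C1qa, C1qb and C1qc, so these counts are not separate readings. The interstitial marker that fell was Lyve1 (-1.77 ± 0.32, adjusted p = 0.00489), and Csf1r, Mrc1 and Apoe did not pass. C1qc, a chain of the complement initiator C1q made by tissue macrophages, was at 8.83, 8.24 and 8.93 FPKM in Control and 31.7, 25.3 and 37.2 FPKM in tpMSC (1.89 ± 0.18, adjusted p = 0.000187). Cfb, the alternative pathway protease, was at 15.2, 15.1 and 14.04 FPKM in Control and 100.8, 80.5 and 197.0 FPKM in tpMSC (3.13 ± 0.35, adjusted p = 0.000484). Of 16 alveolar macrophage markers, 0 passed edgeR's quasi-likelihood test, 0 had an unadjusted p under 0.05, and DESeq2 called 0. By limma with voom and array weights 1 was higher and 3 were lower, by limma on log2(FPKM + 1) 2 were lower, and by edgeR without Control replicate 3, 1 was higher. When edgeR was fitted to the 6 Control and tpMSC libraries alone, 3 were higher and 2 lower. The count of 0 therefore depends both on the test and on which libraries are in the fit. Their median log2 fold change was 0.12 in tpMSC, -2.16 in ALI and -0.51 in MSC, and 12 of the 16 were higher in tpMSC than in ALI, where 11.6% of all genes were higher. Fabp1, a fatty acid-binding protein, stood at 13.4, 11.2 and 8.87 FPKM in Control, 3.83, 7.03 and 3.15 FPKM in tpMSC and 0.07 to 0.43 FPKM in ALI. Against Control its log2 fold change was -1.22 ± 0.65 (adjusted p = 0.237), with an error too wide to tell a sizeable fall from none.

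**Figure D3:**
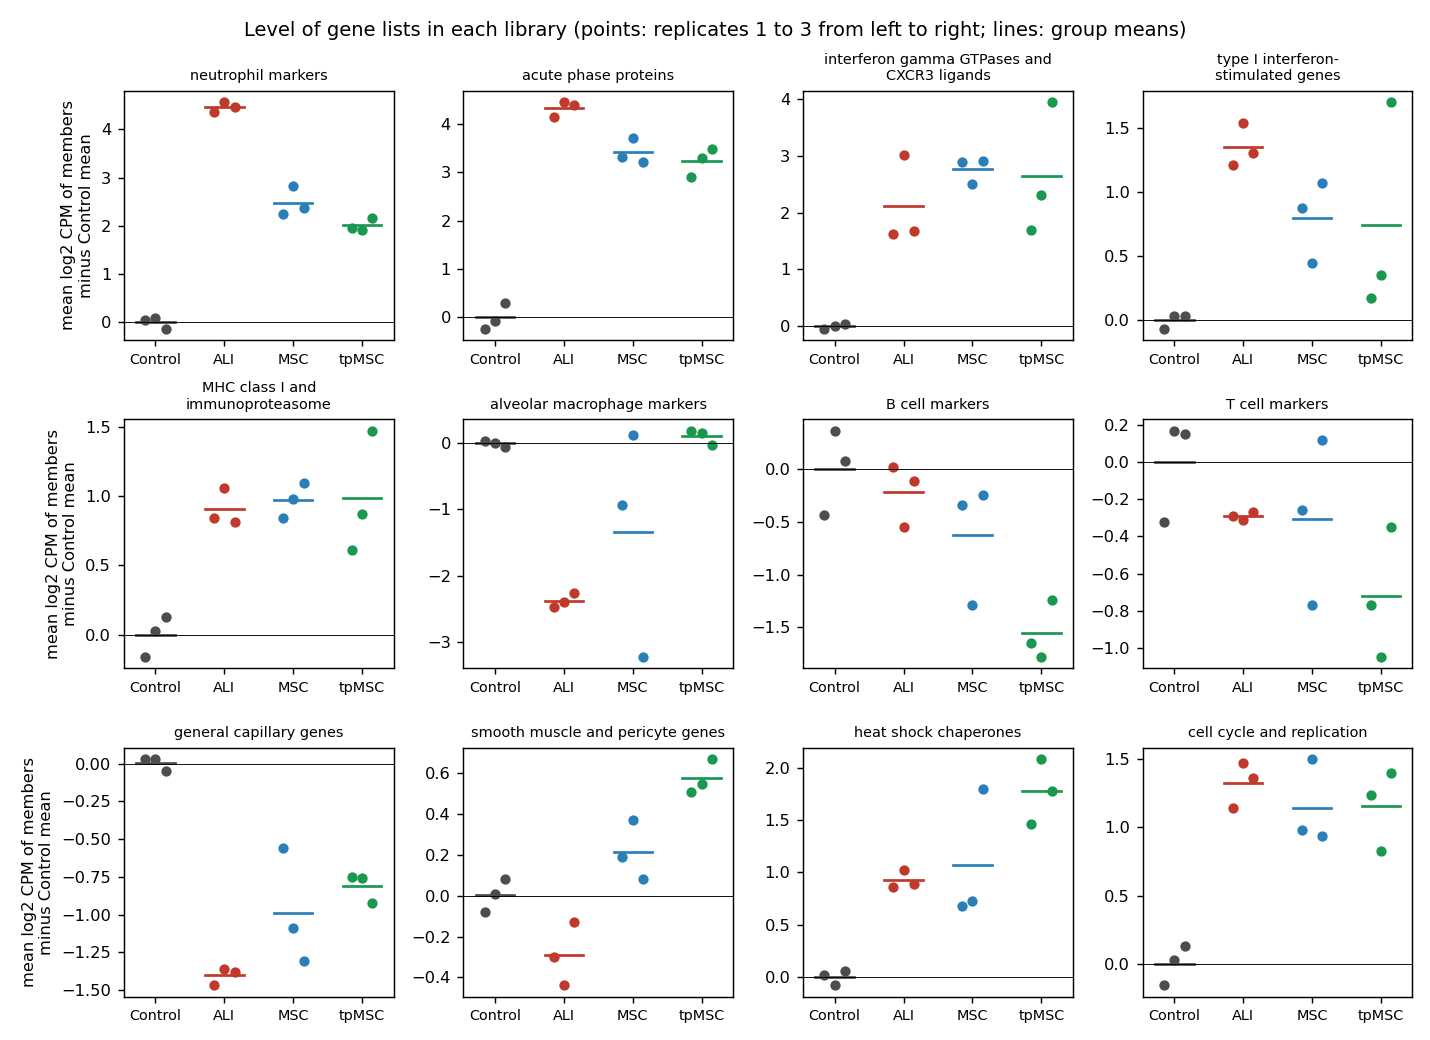
Mean log2 CPM (counts scaled to library size) of the members of 12 gene lists in each library, minus the mean of the 3 Control libraries, with 1 point per library and a line at each group mean. Alveolar macrophage markers in tpMSC lie between -0.03 and 0.19, B cell markers lie below every other library except 1 MSC library that falls inside their range (-1.78 to -1.24), and tpMSC replicate 3 is the highest point of both interferon lists.

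Genes induced by interferon gamma were high in all 3 tpMSC libraries. Of 21 interferon gamma-induced GTPases, CXCR3 ligands and related genes, 19 rose in tpMSC, and Cxcr3 (0.28 ± 0.31, adjusted p = 0.606) and Irf8 (0.22 ± 0.25, adjusted p = 0.616) did not pass. The median log2 fold change was 2.84, beside 1.88 in ALI and 2.48 in MSC. Between tpMSC and ALI, and between tpMSC and MSC, 0 of the 21 were called in either direction. Among all genes tested, 11.6% were higher and 11.5% lower in tpMSC than in ALI, and 0.0305% differed between tpMSC and MSC. As background, promoters of genes induced by interferon gamma often hold a short palindrome called GAS, and interferon response factors bind repeats of GAAA called ISRE.

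Because these genes were high together, the 250 bases upstream of the start site are shown for 4 of them, read from RefSeq on GRCm38.p6 in the direction of the gene. Capitals mark matches to GAS (TTCNNNGAA) or to an ISRE-like pair (GAAA, any 2 bases, GAAA, or its reverse complement). Gbp5, at chr3:142496684-142496933 on the plus strand, holds GAS matches starting 245 and 52 bases and an ISRE-like match 165 bases before the start site. Igtp, at chr11:58199306-58199555 on the plus strand, holds GAS at 45 and the ISRE-like pair at 34 bases. Tgtp1, at chr11:48992247-48992496 on the minus strand, holds them at 88 and 77 bases. Cxcl10, at chr5:92348890-92349139 on the minus strand, holds an ISRE-like match at 213 bases.
Gbp5: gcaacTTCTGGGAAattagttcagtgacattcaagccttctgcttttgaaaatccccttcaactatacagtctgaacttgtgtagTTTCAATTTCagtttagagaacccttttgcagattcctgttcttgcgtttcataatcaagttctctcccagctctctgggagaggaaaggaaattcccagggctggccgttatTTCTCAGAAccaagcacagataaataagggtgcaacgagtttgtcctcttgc
Igtp: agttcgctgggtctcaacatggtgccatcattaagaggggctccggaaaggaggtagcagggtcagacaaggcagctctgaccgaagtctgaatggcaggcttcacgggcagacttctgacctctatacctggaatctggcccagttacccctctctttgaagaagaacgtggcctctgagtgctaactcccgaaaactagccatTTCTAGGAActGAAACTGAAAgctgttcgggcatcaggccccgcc
Tgtp1: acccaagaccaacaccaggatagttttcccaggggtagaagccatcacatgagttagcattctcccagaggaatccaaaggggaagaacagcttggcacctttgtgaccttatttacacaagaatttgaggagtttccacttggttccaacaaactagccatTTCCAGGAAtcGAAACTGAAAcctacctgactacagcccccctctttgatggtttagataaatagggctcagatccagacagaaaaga
Cxcl10: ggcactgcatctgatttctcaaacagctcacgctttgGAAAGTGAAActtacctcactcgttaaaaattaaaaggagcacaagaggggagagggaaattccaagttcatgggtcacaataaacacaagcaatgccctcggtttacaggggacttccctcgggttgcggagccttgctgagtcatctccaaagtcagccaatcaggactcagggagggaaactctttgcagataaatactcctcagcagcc

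Over the list, 15 of the 21 genes matched a RefSeq window of this length. GAS letters were found in 9 of the 15 windows and in 7.18% of all 27025 windows, the ISRE-like letters in 10 and in 3.04%, and either in 13 and in 9.83%. Overlapping matches of both motifs count for each. A match describes letters only and is neither a shown binding site nor a cause, and neighbouring family members share sequence by duplication.

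Cxcl9, a ligand of CXCR3 that attracts activated T cells (chr5:92321347-92328079), was at 0.17, 0.11 and 0.15 FPKM in Control and at 2.43, 3.03 and 52.4 FPKM in tpMSC. All tpMSC libraries were above all Control libraries, and tpMSC replicate 3 was far above the other tpMSC libraries. The log2 fold change was 7.08 ± 1.32 (adjusted p = 0.00533), and the adjusted p ran from 3.85e-10 to 0.0646 over the alternatives, missing the threshold with limma, voom and array weights. Cxcl10, its neighbour on the chromosome, followed the same pattern, at 0.31, 0.4 and 0.16 FPKM against 1.82, 3.27 and 47.8 FPKM (5.93 ± 1.17, adjusted p = 0.00684). With limma on log2(FPKM + 1) its call was lost, the highest adjusted p over the alternatives being 0.0503, and it overlaps the annotated span of Art3. Without tpMSC replicate 3 the log2 fold changes were 4.25 for Cxcl9 (adjusted p = 0.0029) and 3.14 for Cxcl10 (adjusted p = 0.00311). The GTPases were less uneven. Igtp, which defends against vacuolar pathogens, was at 9.68, 11.7 and 14.1 FPKM in Control and 71.2, 113.7 and 248.5 FPKM in tpMSC (3.65 ± 0.47, adjusted p = 0.00103). Against ALI the Igtp difference was 0.98 (adjusted p = 0.126). Tgtp1, of the same family, was at 6.12, 6.99 and 7.7 FPKM against 41.9, 59.0 and 147.8 FPKM (3.62 ± 0.47, adjusted p = 0.00104). Gbp5, a guanylate-binding protein, was at 2.11, 2.24 and 2.11 FPKM against 11.0, 16.0 and 56.0 FPKM (3.72 ± 0.62, adjusted p = 0.00309). Without tpMSC replicate 3 the log2 fold changes were 3.00 for Igtp, 2.90 for Tgtp1 and 2.68 for Gbp5. Igtp and Irgm2 overlap in the annotation, and Tgtp1 has a near-identical copy, so reads could be shared.

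The level of the interferon gamma list was 1.69, 2.30 and 3.94 above the Control mean in tpMSC replicates 1, 2 and 3 (mean log2 CPM). It was 1.63, 3.02 and 1.67 in ALI and 2.89, 2.5 and 2.91 in MSC. Without tpMSC replicate 3, 15 of the 21 members rose and the median was 2.34. Without Control replicate 2, 13 rose. Genes of the type I interferon response depended more on that library. Of 27 tested, 10 rose with a median of 1.00, and without tpMSC replicate 3 the count was 8 and the median 0.16. Their level in tpMSC was 0.17, 0.35 and 1.70 above the Control mean. Without Control replicate 1 the count was 3, and without Control replicate 2 it was 6. Zbp1, a sensor of Z-form nucleic acid, was at 1.72, 2.31 and 2.25 FPKM in Control and 5.19, 7.32 and 28.03 FPKM in tpMSC (2.73 ± 0.53, adjusted p = 0.00651). Oas2, an RNA-sensing enzyme, went from 1.84, 2.18 and 1.98 FPKM to 4.63, 4.72 and 11.7 FPKM (1.84 ± 0.36, adjusted p = 0.00689). Their log2 fold changes were 1.61 (Zbp1) and 1.26 (Oas2) without tpMSC replicate 3.

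Antigen presentation by MHC class I rose as well, with 17 of 19 members of the class I and immunoproteasome list called (median log2 fold change 0.94). Tapbpl (0.68 ± 0.23, adjusted p = 0.0624) and Erap1 (0.07 ± 0.16, adjusted p = 0.836) did not pass. Tap1, the peptide transporter, was at 8.54, 9.53 and 9.74 FPKM in Control and 21.03, 26.8 and 53.5 FPKM in tpMSC (1.91 ± 0.30, adjusted p = 0.00229), and its span overlaps that of Psmb9. H2-Q4, a nonclassical class I chain with close copies, was at 49.1, 58.8 and 65.6 FPKM against 113.1, 136.2 and 166.6 FPKM (1.3 ± 0.17, adjusted p = 0.000964). Without tpMSC replicate 3, 17 members rose, but 13 did without Control replicate 1. MHC class II members moved in both directions: of 10 members, H2-Ab1 rose (0.75 ± 0.17, adjusted p = 0.0124; call lost without Control replicate 1), and H2-Oa and H2-Ob fell. Without tpMSC replicate 1, 3 members rose. H2-Ob, a class II-like chain expressed mainly in B cells, was at 4, 7.68 and 5.74 FPKM in Control and 1.45, 1.16 and 1.41 FPKM in tpMSC (-2.07 ± 0.35, adjusted p = 0.00315).

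**Figure D4:**
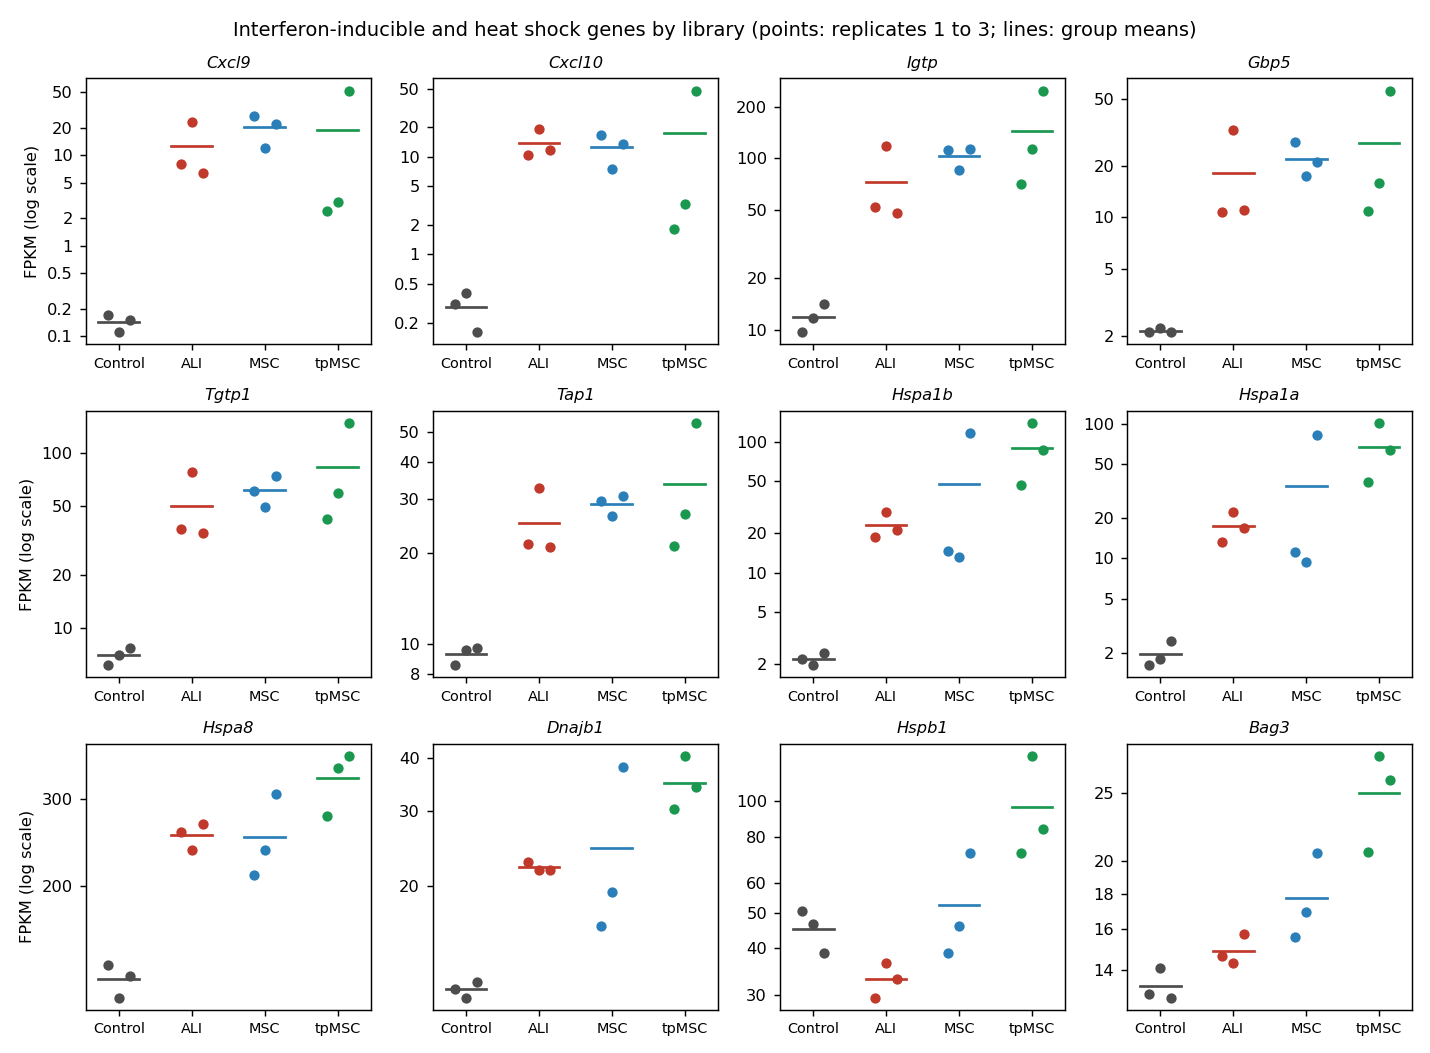
FPKM on a log axis of 6 interferon-inducible genes and 6 heat shock genes in each of the 12 libraries (1 point each, line at the group mean). For Cxcl9 and Cxcl10 tpMSC replicate 3 (52.4 and 47.8 FPKM) is far above the other tpMSC libraries, while for Hspa1b all tpMSC libraries (46.7 to 139.0 FPKM) are above all ALI libraries.

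B cell transcripts were lower in tpMSC than in Control and ALI. Of 13 markers tested, 12 fell against Control, and Vpreb3 (-0.75 ± 0.25, adjusted p = 0.0646) did not pass. The median log2 fold change was -1.66 in tpMSC, -0.25 in ALI and -0.57 in MSC. Compared with ALI, 10 of the 13 were lower in tpMSC, beside 11.5% of all genes tested. Against MSC, edgeR called 0 of the 13 (0.0305% of all genes tested were called), and no other tool was run on that contrast. Cd79b, a signalling chain of the B cell receptor (chr11:106311341-106314762), was at 20.1, 38.1 and 29.0 FPKM in Control and 7.27, 9.13 and 9.43 FPKM in tpMSC, with no overlap (-1.72 ± 0.26, adjusted p = 0.00207). In ALI it was at 22.4 to 28.4 FPKM. Fcmr, a receptor for IgM, went from 7.54, 13.4 and 10.8 FPKM to 2.21, 2.13 and 2.54 FPKM (-2.17 ± 0.34, adjusted p = 0.00228). Pax5, the transcription factor of B cell identity, fell by 2.10 ± 0.41 on the log2 scale (adjusted p = 0.0064). The mean level of the list in MSC replicate 2 lay within the range of the tpMSC libraries, with Pax5 at 0.52 FPKM there against 0.39 to 0.66 FPKM in tpMSC. Without tpMSC replicate 3, 12 of the 13 fell, but 9 did without Control replicate 2 or tpMSC replicate 2.

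Other blood-borne cells moved too. Of 19 T cell markers 12 fell (median log2 fold change -0.94), among them Il7r, the interleukin 7 receptor, from 3.81, 5.25 and 5.5 FPKM to 2.94, 1.86 and 2.43 FPKM (-0.98 ± 0.17, adjusted p = 0.00397). Ccr7, which guides naive T cells and dendritic cells to lymph nodes, fell by 1.48 ± 0.24 on the log2 scale (adjusted p = 0.00271). With 1 library left out, 8 to 11 T cell markers fell. Of 13 NK and cytotoxic markers 2 fell, Klrd1 (call lost without tpMSC replicate 1 or 2) and Klre1 (call lost without any 1 of the 6 libraries). Of 19 plasma cell and immunoglobulin constant genes, 4 fell and 1 rose, and 2 fell without Control replicate 2 or 3 or tpMSC replicate 1 or 2. Ighd, the heavy chain of IgD, went from 25.9, 46.5 and 33.1 FPKM to 8.39, 7.76 and 9.08 FPKM (-2.03 ± 0.30, adjusted p = 0.00177). Red cell genes fell as well, 7 of 10. Hbb-bt, a beta globin with near-identical copies, was at 2934, 1528 and 1955 FPKM in Control and 685.5, 837.8 and 418.9 FPKM in tpMSC (-1.69 ± 0.27, adjusted p = 0.00275). The summed level of the erythroid list was 7708 to 15140 FPKM in Control, 2867 to 5298 FPKM in tpMSC and 2665 to 3178 FPKM in ALI. Lymph node and thymus genes, a possible neighbouring tissue, summed to 15.9 to 23.3 FPKM in Control and 8.51 to 14.9 FPKM in tpMSC. In ALI the sum was 36.35 to 39.83 FPKM. That list shares Fcer2a and Cr2 with the B cell markers, so its sum is not a reading separate from the B cell result. Dntt, another of its members, was near the floor in both groups, at 0 in all tpMSC libraries and at most 0.08 FPKM in Control. The part that blood or lymph node content has in the lymphocyte result was not tested.

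Endothelial genes were reduced in part. Of 12 general capillary genes 9 fell (median log2 fold change -0.77, beside -1.36 in ALI), whereas Glp1r (-0.30), Sema3c (0.24) and Lpl (0.13) did not pass. Plvap, the protein of endothelial diaphragms, was at 235.8, 230.1 and 179.0 FPKM in Control and 48.9, 42.0 and 64.2 FPKM in tpMSC (-2.02 ± 0.37, adjusted p = 0.00491), a range that the ALI libraries overlapped at 31.8 to 42.7 FPKM. Ptprb, the endothelial phosphatase that restrains the receptor TIE2, was at 54.9, 53.4 and 48.9 FPKM against 31.5, 29.7 and 27.0 FPKM (-0.80 ± 0.11, adjusted p = 0.00129). Of 22 general endothelial markers 10 fell and 2 rose (Sox17 and Nos3), and these counts were sensitive to single libraries: 4 to 6 members fell when any 1 library was left out (4 without Control replicate 1 or 2, 5 without Control replicate 3 or tpMSC replicate 1 or 2, 6 without tpMSC replicate 3), and 1 rose in each case except without tpMSC replicate 3, where 3 rose. Pecam1, present on all endothelium, did not pass the test at 118.2 to 121.3 FPKM in Control and 99.5 to 108.8 FPKM in tpMSC (-0.16 ± 0.09, adjusted p = 0.262). Eng, a co-receptor for BMP9, went from 126.6, 118.4 and 112.4 FPKM to 50.8, 54.0 and 59.3 FPKM (-1.09 ± 0.17, adjusted p = 0.00239). Erg, a transcription factor of endothelial identity, went from 27.1, 27.8 and 25.2 FPKM to 16.1, 15.9 and 15.4 FPKM (-0.72 ± 0.09, adjusted p = 0.000795).

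Signals between vessels and their surroundings changed in both directions. Of 15 angiopoietin and VEGF genes 7 fell and 3 rose, and of 17 arterial and Notch genes 7 fell and 5 rose (3 rose without Control replicate 2 or tpMSC replicate 1 or 2). Vegfa, the main growth factor of capillaries, was at 369.1, 355.1 and 345.9 FPKM in Control and at 213.6, 212.6 and 213.5 FPKM in tpMSC (-0.71 ± 0.12, adjusted p = 0.0035). Its relatives Vegfc, which acts on lymphatic vessels, and Pgf, placental growth factor, rose by 1.26 ± 0.18 (adjusted p = 0.00154) and 1.89 ± 0.25 (adjusted p = 0.00104). Without Control replicate 1, 2 or 3 or tpMSC replicate 1, 4 angiopoietin and VEGF genes fell. Esm1, a proteoglycan of endothelial tip cells, had one of the largest falls, from 19.2, 12.4 and 8.1 FPKM to 1.41, 1.29 and 1.15 FPKM (-3.33 ± 0.58, adjusted p = 0.00382); its span overlaps Gzmk. Cxcr4, the receptor of CXCL12, was at 48.1, 45.2 and 41.2 FPKM in Control and 20.8, 17.5 and 19.5 FPKM in tpMSC (-1.18 ± 0.14, adjusted p = 0.00062). Its ALI libraries were at 38.7 to 59.3 FPKM, overlapping Control, and the difference of tpMSC from ALI was -1.43 (adjusted p = 6.84e-05). Cxcl12, its ligand, rose by 0.79 ± 0.11 (adjusted p = 0.00129). Among 19 BMP and Id genes 6 fell and 3 rose, of which 1 rose without any 1 library other than tpMSC replicate 3. Smad6, a feedback inhibitor of BMP signalling, went from 50.6, 52.4 and 57.0 FPKM to 20.3, 20.1 and 20.1 FPKM (-1.37 ± 0.23, adjusted p = 0.00297).

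Epithelial lists differed from each other. Of 17 alveolar type 2 and surfactant genes 3 rose and 2 fell (median log2 fold change -0.07), and of 15 alveolar type 1 genes 1 rose and 4 fell (-0.25). Only 1 type 2 gene rose without any 1 Control library or tpMSC replicate 2, only 1 fell without any 1 library other than tpMSC replicate 2, and 2 type 1 genes fell without Control replicate 1 or 2. Etv5, which maintains type 2 cells, went from 49.0, 44.0 and 40.0 FPKM to 26.5, 27.0 and 23.4 FPKM (-0.76 ± 0.13, adjusted p = 0.00374). Cav2, a caveolar protein of type 1 cells and endothelium, went from 149.5, 147.8 and 153.1 FPKM to 105.9, 92.0 and 75.9 FPKM (-0.68 ± 0.12, adjusted p = 0.00437). Of 14 genes of the transitional state between type 2 and type 1 cells, 6 rose, including Cdkn1a, a cell cycle inhibitor, from 8.27, 8.63 and 7.41 FPKM to 24.0, 22.1 and 26.2 FPKM (1.61 ± 0.17, adjusted p = 0.000342). Clu, a secreted chaperone, rose by 0.90 ± 0.13 (adjusted p = 0.0015). Of 15 club and secretory genes 6 rose (median log2 fold change 1.16, or 0.41 without tpMSC replicate 3), and Pigr, which carries IgA across epithelium, did so from 7.61, 10.1 and 13.3 FPKM to 52.7, 44.0 and 73.8 FPKM (2.50 ± 0.26, adjusted p = 0.000342). That count fell to 2 without Control replicate 1 or 2 and to 3 without tpMSC replicate 3. Reg3g, an antibacterial lectin, was at 0.05, 0.13 and 3.15 FPKM in Control and 55.0, 31.6 and 126.1 FPKM in tpMSC (6.02 ± 1.57, adjusted p = 0.0244), a call lost without Control replicate 1 or 2 or tpMSC replicate 3. Without Control replicate 3 the Reg3g change was 9.44. Lypd8l and Retnlb, which had no count in any Control library, reached 2.32 to 4.32 FPKM and 0.59 to 1.69 FPKM in tpMSC. Against a floor of 3 counts over the Control group they were at least 324.4-fold and 68.5-fold higher; the Lypd8l call was lost with limma, voom and array weights. Cyp1a1, an enzyme induced through the aryl hydrocarbon receptor, had the largest fall among called genes that averaged at least 1 FPKM in Control, from 11.2, 18.5 and 17.0 FPKM to 0.53, 0.19 and 0.23 FPKM (-5.57 ± 0.96, adjusted p = 0.00368), with ALI at 0.05 to 0.32 FPKM.

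Contractile and matrix genes were higher than in normal lung. Of 16 smooth muscle and pericyte genes 9 rose and Mylk fell, a call lost without any 1 of the 6 libraries. The median log2 fold change was 0.53, beside -0.24 in ALI and 0.25 in MSC. Compared with ALI, 14 of the 16 were higher in tpMSC, against 11.6% of all genes. Between tpMSC and MSC 0 of the 16 were called. Acta2, smooth muscle actin (chr19:34241090-34255590), was at 24.6, 27.3 and 29.0 FPKM in Control and 72.1, 73.1 and 95.2 FPKM in tpMSC (1.61 ± 0.27, adjusted p = 0.00343), above its ALI libraries at 24.3 to 42.4 FPKM. Actg2, the enteric smooth muscle actin, went from 4.1, 3.84 and 5.31 FPKM to 13.2, 13.2 and 17.1 FPKM (1.75 ± 0.30, adjusted p = 0.00357). Cspg4, a pericyte proteoglycan, went from 1.44, 1.42 and 1.61 FPKM to 2.13, 2.33 and 2.42 FPKM (0.66 ± 0.13, adjusted p = 0.0066). Of 22 collagen and elastic fibre genes 11 rose and Col12a1 fell. Without Control replicate 2, 7 rose. The median log2 fold change of the 22 was 0.68, beside 0.48 in ALI and 0.6 in MSC. Between tpMSC and MSC 0 of the 22 were called, beside 0.0305% of all genes tested. Eln, elastin, was at 31.8, 25.2 and 21.4 FPKM in Control and 134.5, 84.0 and 100.9 FPKM in tpMSC (2.06 ± 0.33, adjusted p = 0.00278), also above ALI at 31.9 to 57.6 FPKM. Lox, which crosslinks elastin and collagen, went from 10.3, 9.22 and 7.03 FPKM to 38.3, 33.4 and 36.2 FPKM (2.06 ± 0.20, adjusted p = 0.000252), and Col3a1, a fibrillar collagen, from 46.6, 36.1 and 45.7 FPKM to 115.5, 94.1 and 113.4 FPKM (1.37 ± 0.22, adjusted p = 0.00285). Of 17 matrix proteases and inhibitors 7 rose. Timp1, an inhibitor of metalloproteinases, was at 4.04, 3.17 and 2.78 FPKM against 56.3, 61.0 and 84.9 FPKM (4.37 ± 0.25, adjusted p = 6.02e-06).

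**Figure D5:**
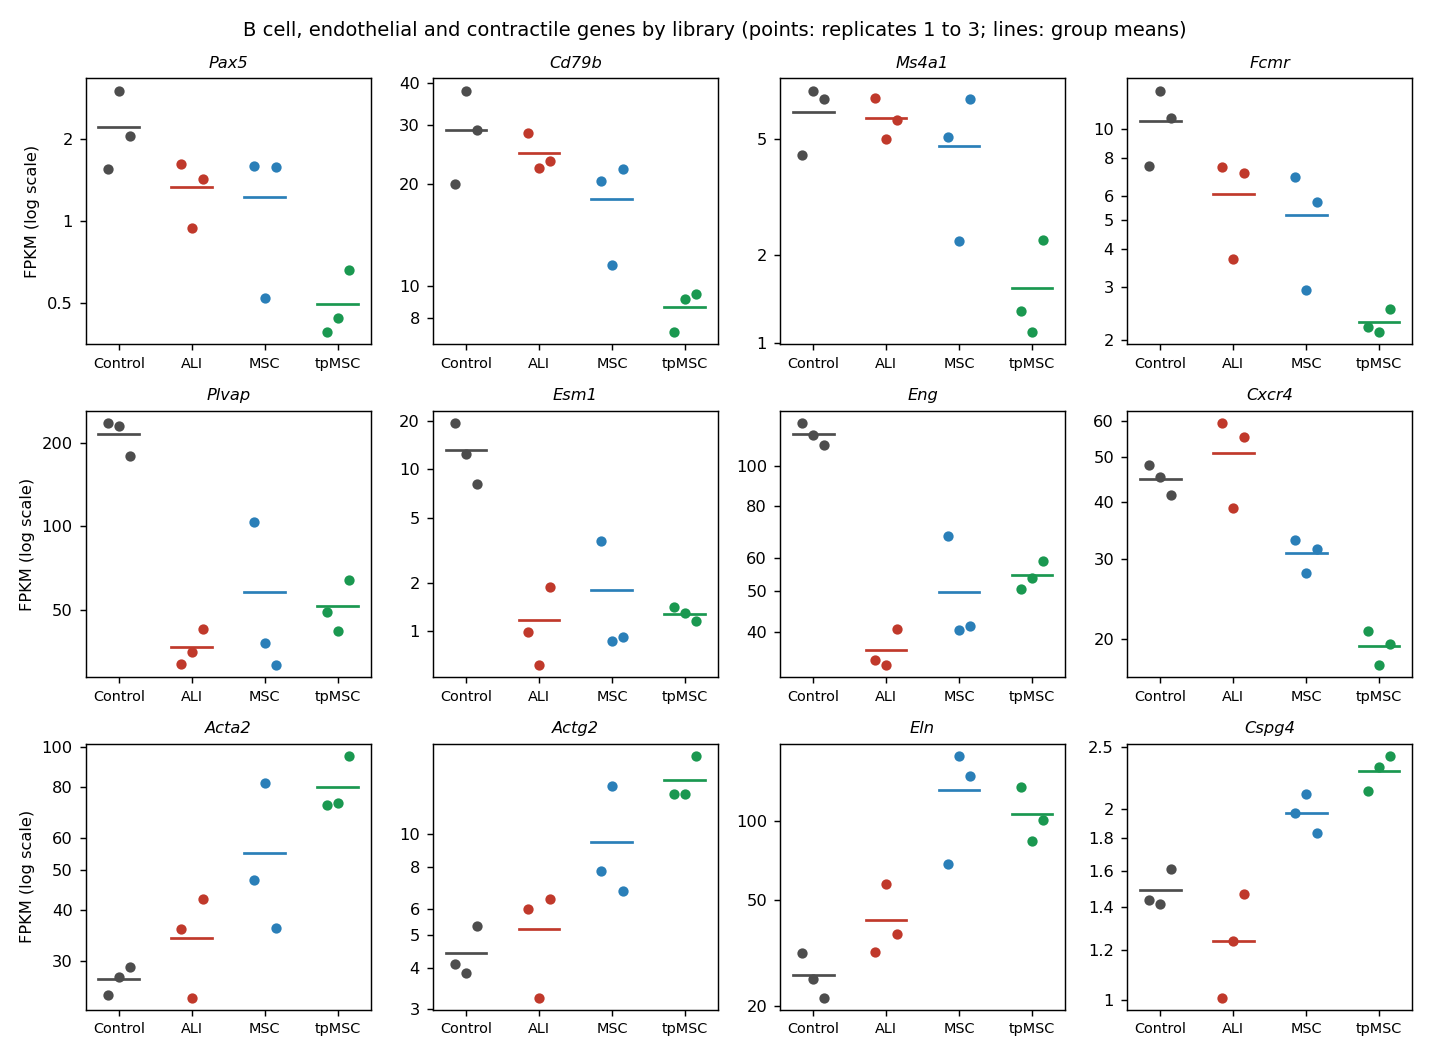
FPKM on a log axis of 4 B cell genes, 4 endothelial or chemokine receptor genes and 4 contractile or elastic genes in each of the 12 libraries (1 point each, line at the group mean). Cd79b is lower in all tpMSC libraries (7.27 to 9.43 FPKM) than in all Control and ALI libraries, Plvap is low in both ALI and tpMSC, and Acta2 is higher in all tpMSC libraries (72.1 to 95.2 FPKM) than in all Control and ALI libraries.

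Heat shock chaperones, which refold damaged proteins and are induced by the factor HSF1, rose in 11 of 12 members tested, and Cryab did not pass (-0.10 ± 0.08, adjusted p = 0.414). The median log2 fold change was 1.20 in tpMSC, 0.59 in ALI and 0.66 in MSC, and the 11 rose without tpMSC replicate 3 too. Hspa1a and Hspa1b, the inducible HSP70 genes, lie on chr17 at 34969190-34972156 and 34956436-34959238 on the minus strand. Their upstream windows are shown because both genes moved together and differ in only 3 of 250 bases there. Capitals mark the heat shock pair, GAANNTTC or TTCNNGAA (the same motif is its own reverse complement in each spelling), which starts 104 bases before the start site in both and was found in 6 of the 9 chaperone genes with a window and in 12.9% of all windows. The windows are chr17:34972157-34972406 and chr17:34959239-34959488 of GRCm38.p6, from RefSeq.
Hspa1a: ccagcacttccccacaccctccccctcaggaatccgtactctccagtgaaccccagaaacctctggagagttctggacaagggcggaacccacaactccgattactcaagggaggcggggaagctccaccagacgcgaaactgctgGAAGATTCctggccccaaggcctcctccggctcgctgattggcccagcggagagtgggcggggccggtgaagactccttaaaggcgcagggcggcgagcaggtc
Hspa1b: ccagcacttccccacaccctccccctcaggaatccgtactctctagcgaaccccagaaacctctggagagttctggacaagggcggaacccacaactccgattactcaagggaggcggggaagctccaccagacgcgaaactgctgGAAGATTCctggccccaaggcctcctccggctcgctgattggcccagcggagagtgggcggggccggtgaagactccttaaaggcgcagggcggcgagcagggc

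Hspa1b was at 2.2, 1.98 and 2.46 FPKM in Control, 46.7, 139.0 and 86.7 FPKM in tpMSC, 19.0, 29.4 and 21.2 FPKM in ALI and 14.7, 13.3 and 116.6 FPKM in MSC. All tpMSC libraries exceeded all ALI libraries, while MSC replicate 3 lay within the tpMSC range and the other MSC libraries below it. Against Control the log2 fold change was 5.40 ± 0.84 (adjusted p = 0.00225), and against ALI it was 1.95 with an adjusted p of 0.0694. Hspa1a followed, at 1.62, 1.79 and 2.44 FPKM in Control and 36.8, 100.6 and 64.2 FPKM in tpMSC (5.14 ± 0.81, adjusted p = 0.00244); the coding parts are near-identical, so reads may be split between them. Hspa8, the constitutive HSC70, went from 137.7, 118.1 and 130.6 FPKM to 277.2, 348.3 and 367.8 FPKM (1.40 ± 0.15, adjusted p = 0.00038). Bag3, a co-chaperone, was at 12.9, 14.1 and 12.8 FPKM in Control, 20.6, 28.3 and 26.2 FPKM in tpMSC and 14.3 to 15.8 FPKM in ALI, and differed from Control (0.95 ± 0.13, adjusted p = 0.00129) and from ALI (0.72, adjusted p = 0.0022). In the endoplasmic reticulum, 10 of 16 unfolded protein and integrated stress response genes rose and Chac1 fell, a call lost without Control replicate 1 or 2 or tpMSC replicate 1 or 2. Hspa5, the chaperone BiP, went from 102.3, 99.1 and 95.7 FPKM to 167.5, 221.5 and 231.2 FPKM (1.10 ± 0.15, adjusted p = 0.00146).

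Proliferation genes rose in 23 of 26 members (median log2 fold change 1.13, beside 1.34 in ALI and 1.15 in MSC), and Mcm2 (0.55, adjusted p = 0.104), Mcm3 (0.52, adjusted p = 0.104) and E2f1 (0.36, adjusted p = 0.185) did not pass. Mki67, a marker of cycling cells, was at 1.84, 2.01 and 1.98 FPKM in Control and 6.96, 4.54 and 8.94 FPKM in tpMSC (1.85 ± 0.23, adjusted p = 0.000802). Top2a, a topoisomerase of mitosis, went from 1.55, 1.79 and 2.13 FPKM to 6.35, 4.09 and 7.23 FPKM (1.73 ± 0.23, adjusted p = 0.00117). Of 24 hypoxia targets 10 rose and 4 fell; without Control replicate 1, 2 or 3 the rises numbered 5, 4 and 6, and without Control replicate 2 or tpMSC replicate 2, 2 fell. Ldha, lactate dehydrogenase, was at 56.8, 58.9 and 64.4 FPKM in Control and 103.8, 109.0 and 108.8 FPKM in tpMSC (0.87 ± 0.13, adjusted p = 0.00165). Of 18 clock genes 8 fell and 4 rose. Nfil3 and Bmal1 rose, by 2.47 ± 0.26 (adjusted p = 0.000337) and 1.5 ± 0.19 (adjusted p = 0.000829). Dbp, an output gene of the clock, was at 58.6, 56.6 and 59.0 FPKM in Control and 9.92, 10.1 and 4.74 FPKM in tpMSC (-2.78 ± 0.74, adjusted p = 0.027), a call lost when any 1 of the 6 libraries was left out. Clock falls numbered 4 without Control replicate 1 or tpMSC replicate 3 and 5 without Control replicate 2. The hour of collection is not in the labels, and its part was not tested.

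Some called genes lay beyond ALI in the direction of their call, at shares below or near those of all genes tested. Of the 2086 genes called higher against Control, 325 (15.6%) had every tpMSC library above every ALI library, beside 21.2% of all genes tested. Of the 1557 called lower, 289 (18.6%) had every tpMSC library below every ALI library, beside 18.3% of all genes. After the naming filters on level, group overlap and gene type 274 and 191 were left. By the size of the difference from ALI, the higher ones were led by Krt14, a keratin of basal cells, at 0.07, 0.23 and 0.17 FPKM in Control, 2.79, 1.48 and 0.82 FPKM in tpMSC and 0.08 to 0.38 FPKM in ALI (3.42 ± 0.72 against Control, adjusted p = 0.00954). Slurp1, a secreted epithelial peptide, and Lgals7, an epithelial galectin, followed, with 1.26 ± 0.28 (adjusted p = 0.0118) and 2.98 ± 0.64 (adjusted p = 0.0104). Hspb1, a small heat shock protein, was at 50.4, 46.5 and 38.8 FPKM in Control, 72.2, 132.2 and 83.9 FPKM in tpMSC and 29.4 to 36.5 FPKM in ALI (1.12 ± 0.25, adjusted p = 0.0123). The lower ones were led by B cell genes: Fcer2a (call lost without any 1 library other than tpMSC replicate 3), Fcrl1, Iglc3 (call lost without Control replicate 2 or 3 or tpMSC replicate 1 or 2), Rubcnl and Iglc2 (call lost without any 1 library), with Ms4a1 and Bank1 among the first 10. Ms4a1, which encodes CD20, was at 4.39, 7.32 and 6.83 FPKM in Control, 1.29, 1.09 and 2.25 FPKM in tpMSC and 4.98 to 6.92 FPKM in ALI (-1.96 ± 0.38, adjusted p = 0.00651). Nr4a1, an immediate early gene and regulator of patrolling monocytes, was at 13.52, 23.5 and 16.6 FPKM in Control, 8.32, 7.39 and 7.3 FPKM in tpMSC and 25.4 to 37.0 FPKM in ALI (-1.18 ± 0.23, adjusted p = 0.00678). Its MSC libraries were at 5.41 to 9.89 FPKM, a range that holds the tpMSC libraries.

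Between the treatments themselves, tpMSC differed from MSC in 7 genes (0.0305% of those tested). Bcl6b, a repressor expressed in endothelium, was higher in tpMSC by a log2 of 0.64, Gja4, an arterial gap junction protein, by 0.73, and Id1 and Id3, targets of BMP signalling, by 0.67 and 0.62. Pla2g7, which degrades platelet-activating factor, was lower by 1.05, and the immunoglobulin V segments Iglv2 and Igkv3-12 were lower as well.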

How the data were processed

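RNA from lung was measured by bulk RNA sequencing in 12 libraries, 3 in each of 4 groups. Per the labels' protocols, polyadenylated RNA was selected with oligo(dT), second strands carried dUTP and paired reads were sequenced. Per the submitters' processing notes, which give no roles, the build was GRCm38 and the tools were HISAT2 2.0.4, cutadapt 1.9 and StringTie 1.3.4d, with edgeR and DESeq2. Which tool counted reads, with what strand setting and on which annotation, is not given in the sources used here. Genes that overlap or have close copies may therefore share reads. The deposited table holds raw counts per gene, and beside them FPKM values that the authors computed.

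Genes were tested on the deposited counts with edgeR 4.0.16 (R 4.3.3): filterByExpr, TMM scaling, 1 mean per group over all 12 libraries (8 residual degrees of freedom), the quasi-likelihood F test of tpMSC minus Control, and Benjamini-Hochberg adjustment over 22915 genes at 0.05. SE is the log2 fold change divided by the root of F. FPKM is printed for levels. Counts for this comparison and these 22915 genes were also simulated, with only 80, 54 and 66 genes changed 1.5-, 2- and 4-fold. Of these, 17.5%, 38.9% and 72.7% were called. With so few genes changed, the adjustment is stricter than in the data, where 3643 genes were called. The simulated shares may therefore understate recovery here. Alternatives used DESeq2 1.42.0 and limma 3.58.1.

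Members and lists were chosen with earlier results of these data known. Genes are named by 3 rules: the 15 largest rises and falls among called genes with no overlap between groups and a mean of 1 FPKM or more where they are higher; up to 10 in each direction with every tpMSC library beyond every ALI library; and the 4 members of each of 69 lists with the smallest p. Positions come from GENCODE M21 (GRCm38) by gene identifier, upstream sequences from RefSeq (GRCm38.p6). Same-numbered Control and tpMSC libraries deviated together with correlations of 0.051, 0.0199 and 0.1042, beside -0.0733 to 0.0293 for libraries of different numbers. The labels do not pair the samples, and the numbers were not taken as pairs.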

Additional observations from a re-analysis of the deposited data

How the results depend on the processing

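Of 3643 genes called, 2086 higher and 1557 lower, limma with voom and array weights called 5952, 2876 of them lower. Without the filter on low counts 1031 genes were lower. At an adjusted p of 0.01 the counts were 1277 in all, 849 higher and 428 lower. Leaving out 1 library at a time gave 1830 to 2802 calls, 1134 to 1714 higher and 685 to 1088 lower, and between 49.5% and 69.8% of the 3643 genes kept their call, with fewer samples in each such fit. With the replicate number as a block 3351 genes were called, 1910 higher and 1441 lower, and 86.6% of the 3643 kept their call; the numbers do not pair the samples by the labels. DESeq2 called 4863 genes and kept 99.7% of the 3643. Of 253 named genes that were called, 53 lost the call without Control replicate 1, 48 without Control replicate 2, 37 without Control replicate 3, 32 without tpMSC replicate 1, 40 without tpMSC replicate 2 and 31 without tpMSC replicate 3, as against 8 under the block and 15 without the filter. None of the 253 changed direction under these alternatives. The cause was not tested. On simulated counts with 3 libraries a group and few changed genes, most genes changed 1.5- or 2-fold were missed. That share need not hold for these data, where far more genes were called.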

Other observations

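Further single genes fell, most of them in lists with few calls. Of 13 prostaglandin and leukotriene enzymes Ptgs1 and Alox5ap rose and 1 fell, with 1 rise without any 1 Control library or tpMSC replicate 3 and 4 in a fit of the 6 libraries alone. The member that fell was Hpgd, which inactivates prostaglandins, at 315.5, 385.2 and 373.1 FPKM in Control and 138.8, 116.8 and 76.0 FPKM in tpMSC (log2 fold change -1.66 ± 0.32, edgeR adjusted p = 0.00587). Hilpda, a lipid droplet protein counted above among the general capillary genes that fell, went from 88.2, 90.3 and 92.8 FPKM to 32.0, 31.5 and 19.3 FPKM (-1.68 ± 0.26, adjusted p = 0.00211). Its ALI libraries lay between the groups at 40.2 to 52.6 FPKM. Of 14 lipid-associated macrophage genes Trem2, Ctsd and Ctsk rose and 1 fell, with 1 rise without any 1 Control library or tpMSC replicate 1 and 6 in a fit of the 6 libraries alone. Cd36, a fatty acid transporter of capillaries and macrophages, was the member that fell, by 0.85 ± 0.11 on the log2 scale (adjusted p = 0.00103). Gsn, the actin-severing protein gelsolin, fell by 0.47 ± 0.11 on the log2 scale (adjusted p = 0.0136).

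Igf1, a growth factor made by macrophages and fibroblasts, was at 2.05, 1.61 and 1.91 FPKM in Control and 5.39, 4.13 and 6.97 FPKM in tpMSC (1.60 ± 0.18, adjusted p = 0.000513). Fkbp5, a glucocorticoid-induced chaperone partner, rose from 1.43, 1.34 and 1.60 FPKM to 7.29, 4.54 and 4.77 FPKM (1.96 ± 0.27, adjusted p = 0.0014), whereas Per1, which glucocorticoids and the clock both induce, fell from 20.4, 20.6 and 23.7 FPKM to 12.2, 11.3 and 8.39 FPKM (-0.98 ± 0.16, adjusted p = 0.00287). Slc26a4, the anion exchanger pendrin of airway epithelium, was at 0.91, 1.13 and 0.73 FPKM in Control and 3.67, 4.89 and 16.3 FPKM in tpMSC, highest in tpMSC replicate 3 (3.21 ± 0.56, adjusted p = 0.00397), and without that library the change was 2.25. Chl1, a neural adhesion molecule, was almost undetected in Control, at 0.02, 0.01 and 0 FPKM, and stood at 1.39, 1.14 and 1.33 FPKM in tpMSC (7.02 ± 0.42, adjusted p = 6.13e-06), a change of 7.63 without Control replicate 1 and 6.44 without Control replicate 3. Grp, the neuropeptide gastrin-releasing peptide, went from 2.91, 2.97 and 2.34 FPKM to 0.56, 0.53 and 0.42 FPKM (-2.38 ± 0.29, adjusted p = 0.000795).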
